A study of Macaca mulatta with 30 samples.

Results

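Heavy drinkers (HD, 7 animals) were compared with low drinkers (LD, 10 animals) in cortical area 32, a medial prefrontal region, of male rhesus macaques. These are 17 of the 30 libraries of the series, chosen by the drinking category in the labels and by no measured value. The other 13 libraries, from 6 very heavy (VHD) and 7 binge (BD) drinkers, share the model, where they help to set the spread and the cohort terms, and their levels stand beside a few results. All animals, LD included, learned to take 4% ethanol (w/v), which was then on offer for 22 h per day over more than 12 months, so LD is a low-intake group and not an ethanol-free one. By the labels an HD animal took 3 g/kg of ethanol or more on at least 20% of days, and an LD animal met none of the rules for heavier categories. Each library is rRNA-depleted, strand-specific total RNA of 1 animal, from a block of tissue that holds all cell types of the area.

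The HD animals come from cohorts 5 (3 animals), 7a (2), 7b (1) and 4 (1), and the LD animals from cohorts 4 (4 animals), 7a (3) and 7b (3). Mean age at the end of drinking was 9.98 years in cohort 4, 7.15 in cohort 5, 5.70 in cohort 7a and 7.18 in cohort 7b. Cohort 5 holds no LD animal, so its 3 HD animals are tied to LD only through the VHD and BD animals in a model with cohort as a term. The number at the end of the library title is also unevenly spread: 4 of 7 HD libraries and 1 of 10 LD libraries have a number from 1 to 8. What these numbers stand for is not given, and a second fit had numbers 1-8 against the rest as a further term ("the library-number term"). Its values stand beside the lists and genes where they are given.

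Area 32 holds pyramidal and inhibitory neurons, the glial cells that insulate and supply them, and a dense bed of vessels. Vessel walls and the meninges that cover the cortex carry fibroblasts, which make collagens and small proteoglycans, and pericytes and smooth muscle cells, which are contractile. Myelin, made by oligodendrocytes, and these vascular cells are a small part of grey matter.

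The depth was 9.19 ± 3.16 M reads per library in HD (SD, n = 7; M for 1e6) and 9.01 ± 2.43 M in LD (SD, n = 10). Neuronal SNAP25 ranged over 13237 to 18306 normalized reads in HD and 13641 to 18435 in LD, and the astrocyte transporter SLC1A2 over 50474 to 63676 in HD and 50419 to 68960 in LD. The beta-globin gene HBB reached at most 12.2 normalized reads in HD and 23.5 in LD, and TTR, which defines choroid plexus, at most 32.9 in HD and 26.8 in LD. The libraries thus carried the markers of cortex and hardly any of blood or choroid plexus. Among the 17 libraries, HD replicate 5 (cohort 5, number 9) stood apart from the other HD libraries in vessel and matrix genes, and LD replicate 1 (cohort 7b, number 8) from the other LD libraries in smooth muscle and astrocyte genes. A normalized read is a read after the authors' scaling of each library to a common upper quartile.

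No gene passed the test in limma or edgeR. At an adjusted p under 0.05, 0 of 12935 genes (0%) passed in limma, with 0.200 as the smallest adjusted p, and 0 in edgeR. At an unadjusted p under 0.05 limma counted 1623 genes (12.5%), edgeR 1518 (11.7%) and DESeq2 1581 (12.2%), where 5% of the tested genes would be 647. Of the 1623, 759 (5.87% of the tested genes) were higher in HD and 864 (6.68%) lower. DESeq2 called 5 genes (0.0387%), all lower in HD: EML2, PADI2 and TRIP6 (each at adjusted p = 0.0279), and GLIS3 and SIRPB1 (each at adjusted p = 0.0471). With the library-number term the unadjusted count was 583 (4.51%), which is under 5% of the genes, and limma called 0. Of these 583 genes, 483 also had an unadjusted p under 0.05 without the term and the same direction, 217 higher and 266 lower in HD. Of 111 genes described below by their gene-level difference, all 111 had the same direction with the term. Of the 98 with an unadjusted p under 0.05, 59 had one with it too, against 483 of the 1623 over all tested genes. Many of the 111 were named by their p in these same libraries, in the fit without or with the term. Their agreement between the fits thus largely follows from the choice and is no support.

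Fibroblast and meningeal genes were the gene group with the largest median difference of the 36 lists with more than 1 tested member, except without the libraries numbered 1-8, where the oligodendrocyte and myelin list was larger (−0.35 against −0.29). All 30 tested members were lower in HD, against 49.5% of all tested genes, with a median of −0.70 on the log2 scale against 0.003 over all tested genes. At an unadjusted p under 0.05, 21 of the 30 were lower, against 6.68% of all tested genes, and none passed the adjusted test (limma, adjusted p from 0.298 to 0.845). The list's members were chosen with earlier results of these data known, so these counts are not an independent test. Of the 35 listed genes 31 are in the table, and FOXC2, a transcription factor, was too low to be tested. In bulk tissue, fewer fibroblasts and less of these RNAs per fibroblast cannot be told apart.

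COL1A1, which encodes the main chain of type I collagen, had 32.5, 167 and 390 normalized reads in HD (lowest, median and highest library) against 74.2, 240 and 640 in LD, a difference of −1.32 ± 0.42 (limma estimate ± SE, log2, adjusted p = 0.314). COL1A2, for the partner chain, differed by −1.13 ± 0.39, and COL3A1, for type III collagen, had 140, 247 and 1040 normalized reads in HD against 227, 576 and 871 in LD. The ranges of both groups overlapped for each of these collagens. PCOLCE, a protein that speeds the trimming of collagen precursors, had 20.7, 39.9 and 132 normalized reads in HD against 41.8, 77.1 and 171 in LD, a difference of −1.13 ± 0.28 (limma, adjusted p = 0.298). Its HD median lay below the lowest LD library, and 6 of 7 HD libraries were below the LD mean. The transporters that mark meningeal fibroblasts were low in the same way: SLC6A13, a GABA and taurine carrier, by −1.11 ± 0.29, SLC6A20, an amino acid carrier, by −1.13 ± 0.39 and SLC22A8, an organic anion carrier, by −1.18 ± 0.45.

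Small proteoglycans and growth factors were lower to differing degrees. LUM and FMOD, which space collagen fibrils, were at −0.81 ± 0.29 and −0.79 ± 0.31, OGN, of the same family, at −0.74 ± 0.35, DCN at −0.46 ± 0.22 and BGN at −0.38 ± 0.24. IGF2, a growth factor made by meninges, had 118, 164 and 513 normalized reads in HD and 151, 350 and 765 in LD, a difference of −0.81 ± 0.30. BMP6 and BMP5, secreted signals, differed by −0.58 ± 0.20 and −0.76 ± 0.31, and CRABP2, which carries retinoic acid, by −0.98 ± 0.36. At the weak end of the list stood LAMA1, a laminin chain, at −0.07 ± 0.14, FBLN5 at −0.19 ± 0.22 and the transcription factor TWIST1 at −0.28 ± 0.21.

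**Figure D1:**
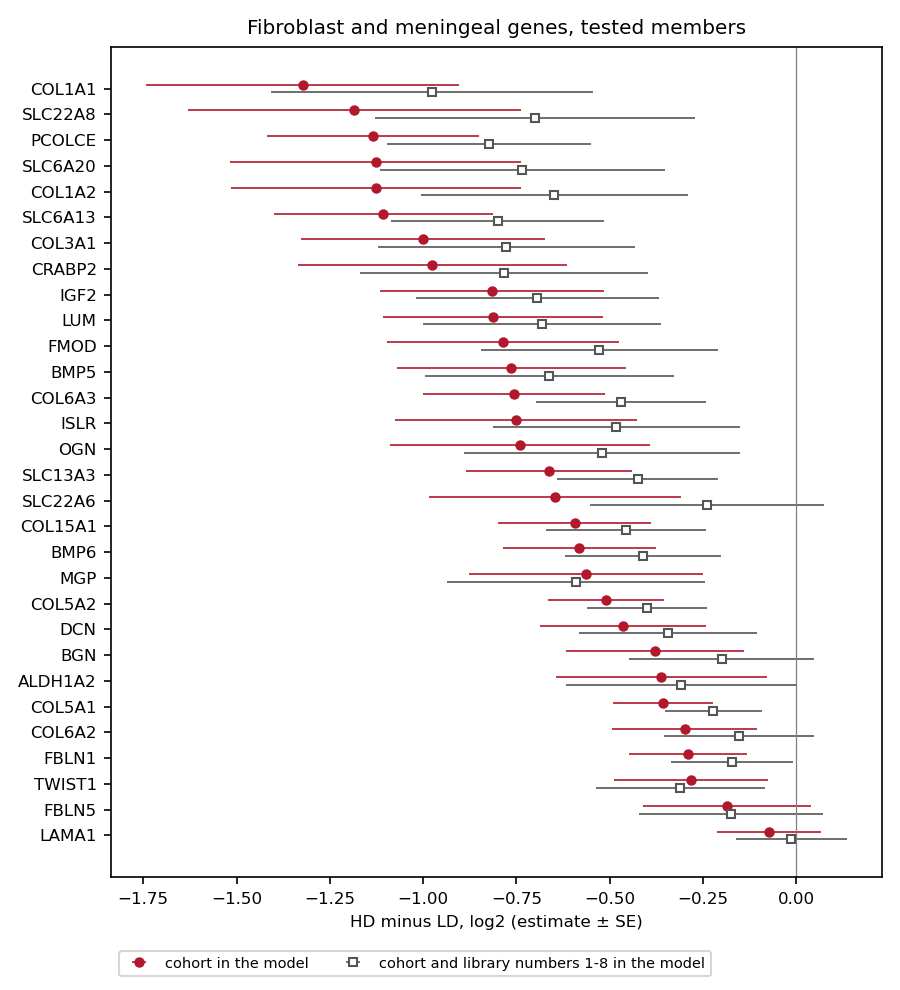
Difference between HD and LD (log2, estimate ± SE from limma) for the 30 tested fibroblast and meningeal genes, with cohort in the model (red circles) and with cohort and the library-number term (open squares). All red estimates lie below 0, from −1.32 for COL1A1 to −0.07 for LAMA1, and most open squares lie nearer to 0.

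Per library, the fibroblast list was summed and also averaged as log2 values relative to the LD mean. The sum was 4044, 5794 and 13733 normalized reads in HD (lowest, median, highest) against 5733, 8550 and 13379 in LD, and 9044 and 8190 as medians in VHD and BD. The mean log2 value relative to the LD mean was −0.57 ± 0.61 in HD (SD, n = 7), with an SD of 0.47 in LD (n = 10). On the same scale it was 0.02 ± 0.40 in VHD (SD, n = 6) and −0.13 ± 0.31 in BD (SD, n = 7). In HD 6 libraries lay between −1.18 and −0.48 and 1, HD replicate 5 of cohort 5, stood at 0.65, above the highest LD library at 0.64. LD spread from −0.67 to 0.64, so the groups overlapped widely.

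The library numbers moved with this list. The 4 HD libraries with numbers 1-8 averaged −0.82 and the 3 others −0.24, or −0.69 without HD replicate 5, while the single LD library in that range stood at −0.20 and the other 9 LD libraries at 0.02 on average. With the library-number term the list's median was −0.48, with 30 of 30 members lower and 9 of 30 at an unadjusted p under 0.05, against 2.43% of all tested genes. Without the libraries numbered 1-8 the median was −0.29, with 29 of 30 lower in HD and 2 of 30 at an unadjusted p under 0.05, against 3.43% of all genes. That fit has 3 HD libraries, at −0.55, −0.82 and 0.65, the last being HD replicate 5. What part the library numbers have in the result was not tested beyond these fits. Within cohorts the median difference was −0.55 in cohort 4 (1 HD and 4 LD animals), −0.74 in cohort 7a (2 and 3) and −1.18 in cohort 7b (1 and 3), and without cohort 5 it was −0.85 with 25 of 30 lower at an unadjusted p under 0.05, against 5.11% of all genes.

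**Figure D2:**
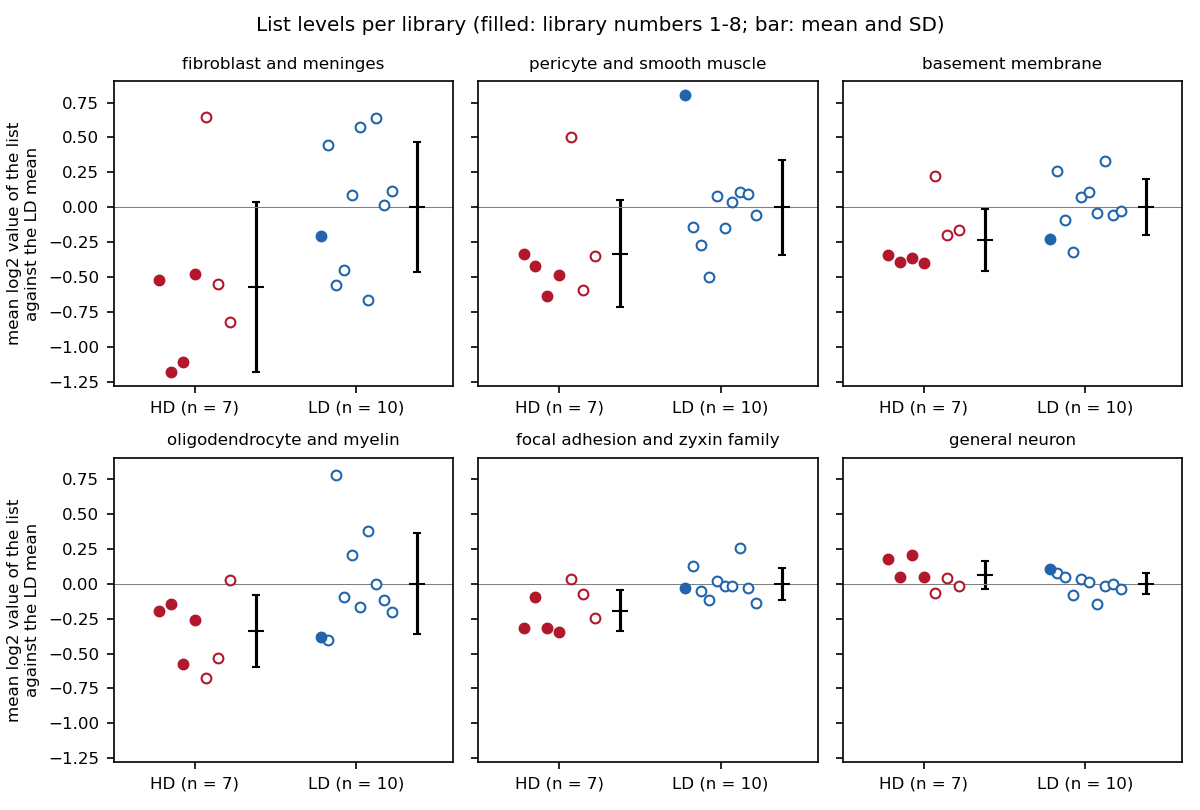
Mean log2 value of 6 gene lists in each HD (red) and LD (blue) library relative to the LD mean, with filled points for library numbers 1-8 and the mean ± SD at the right of each group. In the fibroblast list 6 of 7 HD libraries lie at −0.48 or lower and 1 lies at 0.65; the general neuron list varies far less in both groups.

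OMD and PI16, secreted proteins known from connective tissue, are outside the fibroblast list. They were called by limma when cohort 5 was left out, at −1.33 and −1.36 (adjusted p = 0.0465 each). In all libraries OMD had 6.18, 35.1 and 169 normalized reads in HD against 31.0, 89.8 and 131 in LD, and differed by −1.20 ± 0.43 (limma, adjusted p = 0.317). PI16 had 10.3, 24.8 and 124 in HD against 37.7, 59.8 and 76.7 in LD, and differed by −1.10 ± 0.32 (limma, adjusted p = 0.308). In both genes the highest HD library exceeded every LD library and the HD median lay near or below the LD minimum. Leaving out cohort 5 removes 3 HD libraries, HD replicate 5 among them, with the 4 VHD libraries and the 1 BD library of that cohort.

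Other vessel genes were lower in HD in smaller measure. Of 21 tested pericyte and smooth muscle genes, 17 were lower, against 49.5% of all tested genes. At an unadjusted p under 0.05, 6 were lower, against 6.68% of all tested genes. The list's median was −0.25 (−0.33 with the library-number term). ACTA2, smooth muscle actin, had 138, 194 and 521 normalized reads in HD against 205, 339 and 1332 in LD, and differed by −0.82 ± 0.36. CNN1, or calponin, which restrains smooth muscle contraction, had 2.57, 5.90 and 38.3 in HD against 2.07, 16.5 and 152 in LD, a difference of −1.32 ± 0.61. For both genes LD replicate 1, of cohort 7b and number 8, was the highest library, and without it the differences were −0.64 for ACTA2 and −1.06 for CNN1. SMTN, or smoothelin, at −0.54 ± 0.23 and TBX18, a transcription factor of mural cells, at −0.68 ± 0.29 pointed the same way. Without the libraries numbered 1-8 the list's median was −0.15, with 13 of 21 lower. At an unadjusted p under 0.05, 0 were lower in that fit, against 3.43% of all tested genes.

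The basement membrane, the protein sheet under endothelium and around vessels, had 14 of 15 tested genes lower in HD with a median of −0.24. At an unadjusted p under 0.05, 5 were lower. The shares over all tested genes were 49.5% lower and 6.68% lower at that p. LAMB2, a laminin chain of vessels, had 397, 462 and 841 normalized reads in HD against 546, 683 and 996 in LD (−0.56 ± 0.15). NID2, nidogen 2, which links laminin to collagen, had 60.3, 75.0 and 91.1 in HD against 78.4, 107 and 139 in LD (−0.60 ± 0.16), with 7 of 7 HD libraries below the LD mean. HSPG2, or perlecan, was at −0.62 ± 0.22 and FN1, fibronectin, at −0.43 ± 0.18. With the library-number term the list's median was −0.08, and NID2 stood at −0.55 while LAMB2 stood at −0.31. Without the libraries numbered 1-8 the median was −0.07.

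Endothelial genes did not share one direction. Of 22 tested, 14 were lower and 8 higher in HD, with a median of −0.08, against 49.5% lower among all tested genes. At an unadjusted p under 0.05, 3 were lower and 1 higher, against 6.68% and 5.87% of all tested genes. In the fit with the library-number term 12 were lower and 10 higher, with a median of −0.03. CD93, an adhesion receptor of endothelium, was at −0.68 ± 0.21, KDR, the main VEGF receptor, at −0.56 ± 0.24 and TIE1, an angiopoietin pathway receptor, at −0.37 ± 0.18. FLT1, the other VEGF receptor, had 368, 514 and 551 normalized reads in HD against 324, 368 and 410 in LD and was higher by 0.27 ± 0.10, with 7 of 7 HD libraries above the LD mean. The receptor pair for VEGF thus pointed in opposite directions, with KDR at 186, 224 and 724 in HD against 165, 387 and 643 in LD. SLCO1C1, a transporter of thyroid hormone that brain endothelium and astrocytes carry, stood among the genes with the smallest p on the higher side.

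Of 32 tested oligodendrocyte and myelin genes, 29 were lower in HD, with a median of −0.23, against 49.5% lower among all tested genes. At an unadjusted p under 0.05, 6 were lower, against 6.68% of all tested genes. The list kept its direction with the library-number term (median −0.29, 31 of 32 lower, against 48.9% of all genes). At an unadjusted p under 0.05, 3 of 32 were lower in that fit, against 2.43% of all genes. Without the libraries numbered 1-8 the median was −0.35, with 31 of 32 lower, against 6329 of all 12935 genes. At an unadjusted p under 0.05, 4 of 32 were lower there, against 3.43% of all genes. MAG, an adhesion protein of the myelin sheath, had 97.4, 141 and 246 normalized reads in HD against 162, 212 and 536 in LD, a difference of −0.71 ± 0.26. PADI2, which turns arginine to citrulline in myelin basic protein, had 903, 1049 and 1227 in HD against 966, 1452 and 1651 in LD, a difference of −0.40 ± 0.09 (limma, adjusted p = 0.200). In 8 of the 10 LD libraries PADI2 exceeded every HD library. PLLP, plasmolipin, a myelin membrane protein, was at −0.50 ± 0.22 and TMEM125 at −0.92 ± 0.36. MBP itself, the myelin basic protein gene, differed by only −0.06 ± 0.20.

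Summed over the list, the oligodendrocyte and myelin genes had 7306, 9275 and 10896 normalized reads in HD and 8152, 10199 and 17873 in LD, with medians of 10790 in VHD and 11103 in BD. The top of the LD range is set by cohort 4, the oldest cohort, whose LD animals reached 17873 and 15053. Within cohorts the median difference of the list was −0.26 in cohort 4, −0.25 in cohort 7a and −0.21 in cohort 7b. Precursors of oligodendrocytes, measured by 14 genes, had a median of 0.04, or −0.01 with the library-number term, and no gene at an unadjusted p under 0.05 in either fit.

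Astrocyte and microglial genes were lower in part. In the astrocyte list 19 of 26 were lower with a median of −0.09, against 49.5% lower among all tested genes. At an unadjusted p under 0.05, 5 were lower, against 6.68% of all tested genes. MLC1, a membrane protein of astrocyte end-feet, had 1038, 1312 and 1745 normalized reads in HD against 1314, 1688 and 1898 in LD (−0.41 ± 0.11). GFAP, the intermediate filament of astrocytes, had 9514, 12803 and 18265 in HD against 11304, 15544 and 23852 in LD (−0.41 ± 0.14). FGFR3, a growth factor receptor, was at −0.40 ± 0.13, while SLC1A2 was at −0.03 ± 0.05. The list's median was −0.02 with the library-number term.

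In the microglia and macrophage list 17 of 24 were lower, with a median of −0.05 and 5 at an unadjusted p under 0.05. Over all tested genes 49.5% were lower, and 6.68% were lower at that p. The other 7 members were higher, 0 of them at that p, and the largest difference of the list, 0.84, was on that side. The genes named here had the smallest p, all on the lower side. CSF1R, the receptor that microglia need to survive, had 419, 531 and 762 normalized reads in HD against 582, 653 and 834 in LD (−0.33 ± 0.11). CD14, a receptor for bacterial lipid, was at −0.50 ± 0.19, CD68, a lysosomal protein of phagocytes, at −0.49 ± 0.19 and ITGAM, an integrin chain, at −0.31 ± 0.13. With the library-number term 0 of the 24 had an unadjusted p under 0.05, and without the libraries numbered 1-8 the median was 0.02. The direction of this list therefore depended on those libraries.

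**Figure D3:**
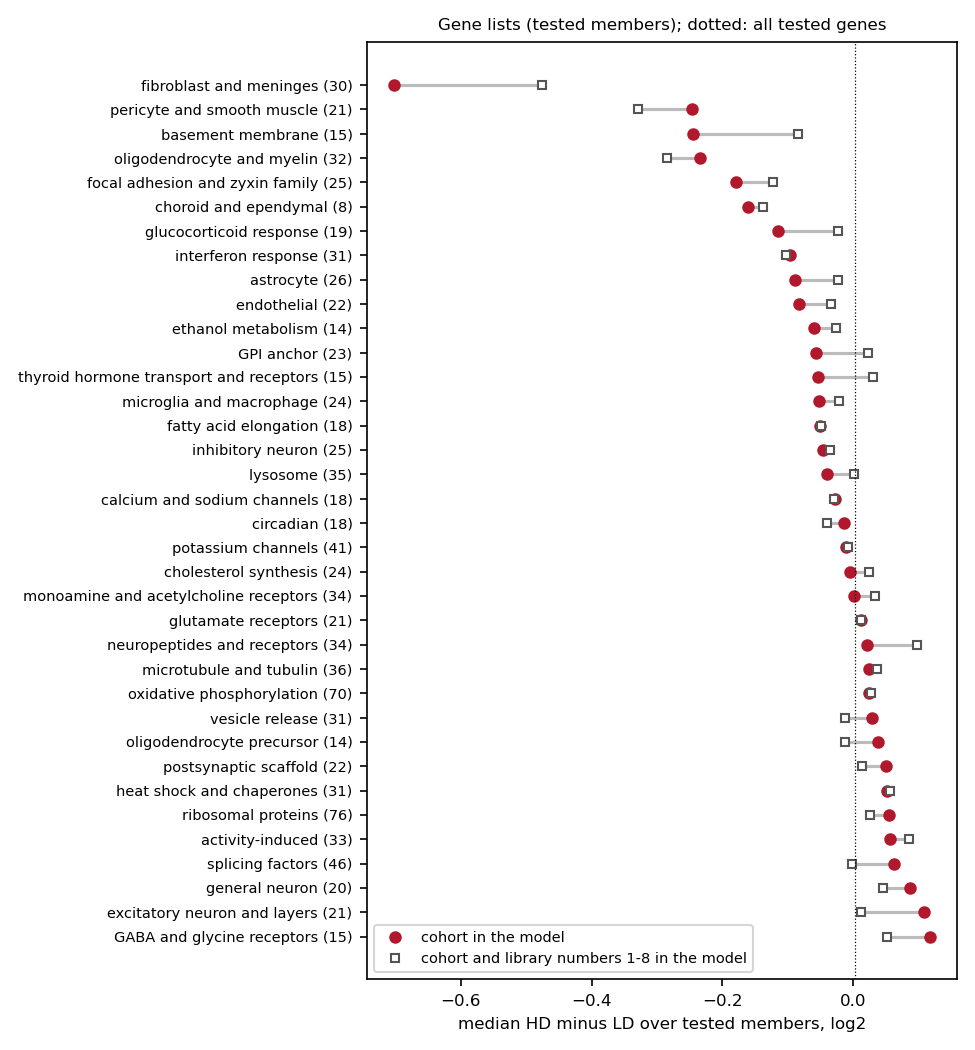
Median difference between HD and LD (log2) of each gene list, with the number of tested members in brackets, for the model with cohort (red circles) and with cohort and the library-number term (open squares); the dotted line is the median of all tested genes. The fibroblast list lies farthest from the line at −0.70, or −0.48 with the term, and most neuronal and housekeeping lists lie within 0.12 of it.

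Genes of focal adhesions, the sites where integrins couple the matrix to actin, were mostly lower. Of 25 tested, 23 were lower in HD, with a median of −0.18, against 49.5% lower among all tested genes. At an unadjusted p under 0.05, 8 were lower, against 6.68% of all tested genes. With the library-number term 21 of 25 were lower, with a median of −0.12. TRIP6, a zyxin family adaptor protein that moves between focal adhesions and the nucleus, had 42.8, 65.0 and 92.7 normalized reads in HD against 68.2, 107 and 133 in LD, a difference of −0.73 ± 0.16 (limma, adjusted p = 0.200). TLN1, or talin, which activates integrins, had 1416, 1556 and 1805 in HD against 1641, 1889 and 2500 in LD, a difference of −0.31 ± 0.07 (limma, adjusted p = 0.274). FLNA, a filamin that cross-links actin, was at −0.45 ± 0.15. For TRIP6 and TLN1, 7 of 7 HD libraries were below the LD mean, and the differences with the library-number term were −0.58 and −0.27.

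Among single genes lower in HD, EML2 had the smallest p. EML2, a microtubule-binding protein, had 735, 836 and 954 normalized reads in HD against 814, 1010 and 1107 in LD, a difference of −0.32 ± 0.07 (limma, adjusted p = 0.200). Its lowest LD library was replicate 1, the only LD library numbered 1-8. GLIS3, a zinc finger transcription factor, was the only gene of 12935 (0.00773%) whose 7 HD libraries all lay below the 10 LD libraries, at 85.6, 110 and 121 in HD against 123, 150 and 193 in LD. Its difference was −0.55 ± 0.12 (limma, adjusted p = 0.202) and −0.57 with the library-number term. Within cohorts 4, 7a and 7b the GLIS3 difference was −0.51, −0.41 and −0.87.

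GPAT2, which attaches the first fatty acid to glycerol phosphate, had 12.2, 25.1 and 38.8 normalized reads in HD against 37.2, 46.1 and 72.0 in LD, a difference of −0.82 ± 0.18 (limma, adjusted p = 0.200). Only HD replicate 7, from cohort 4, reached into the LD range. CLCN2, a chloride channel of glia and neurons, had 136, 169 and 193 in HD against 174, 234 and 274 in LD (−0.45 ± 0.10). CTDSP1, a phosphatase known to hold neuronal genes silent in other cells, had 93.0, 150 and 204 in HD against 157, 205 and 240 in LD (−0.54 ± 0.12). RPS6KA1, a kinase downstream of MAP kinases, was at −0.42 ± 0.10 and NAPA, or alpha-SNAP, which recycles SNARE complexes, at −0.31 ± 0.08. The histone gene HIST1H2BB was at −0.71 ± 0.17; it has close copies, and how reads shared between copies were assigned is not given in the sources used here.

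SIRPB1, a signal-regulatory receptor of myeloid cells, was near 0 or clearly present in each animal and not in between. It had 38.2 normalized reads in 1 of 7 HD libraries and between 29.3 and 87.2 in 6 of 10 LD libraries. The other HD and LD libraries were at 3.09 or lower. The limma difference was −2.79 ± 1.19 (adjusted p = 0.352), and DESeq2 called it (−6.34, adjusted p = 0.0471). SIRPB1 has close relatives in the SIRP family, and only 1 of its exons was high enough to be tested.

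On the higher side, PTPLA had the smallest p. PTPLA, which encodes the dehydratase step of very long chain fatty acid synthesis, had 33.9, 47.5 and 58.2 normalized reads in HD against 21.6, 29.1 and 38.1 in LD (lowest, median, highest), and its difference of 0.79 ± 0.17 was 0.71 with the library-number term. The groups overlapped only through HD replicate 7, at 33.9, which lay below the 3 highest LD libraries. The rest of fatty acid elongation did not go with it: of 18 tested genes 10 were lower and 8 higher, with a median of −0.05, and ELOVL1 (−0.36 ± 0.11), FADS3 (−0.30 ± 0.11) and FADS1 (−0.21 ± 0.08), an elongase and desaturases, were lower in HD at an unadjusted p under 0.05. At that p 4 of the 18 were lower and 1 higher, against 6.68% and 5.87% of all tested genes. With the library-number term 1 was lower and 1 higher, against 2.43% and 2.08%. Likewise PGAP1, which trims the lipid anchor of surface proteins, was higher, at 3233, 3800 and 4350 in HD against 2655, 3120 and 3893 in LD. Its pathway, GPI anchor synthesis, had 9 of 23 genes higher and a median of −0.06, or 0.02 with the library-number term. SLCO1C1 had 336, 422 and 466.1 in HD against 232, 304 and 448 in LD, and in the list of thyroid hormone transport and receptors 7 of 15 genes were higher, with a median of −0.05, or 0.03 with the library-number term. In these 3 pathways the other genes were divided in direction.

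**Figure D4:**
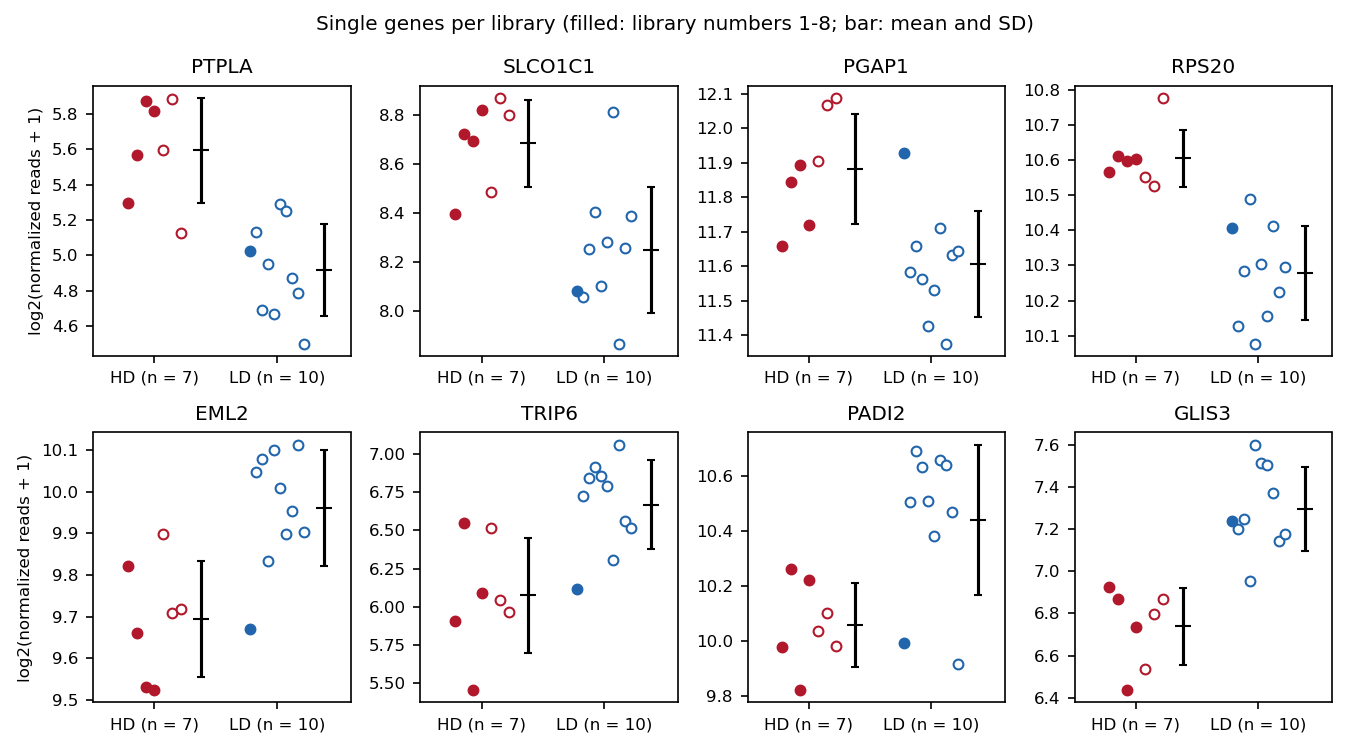
Level of 8 genes in each HD (red) and LD (blue) library as log2(normalized reads + 1), with filled points for library numbers 1-8 and the mean ± SD beside each group. GLIS3 and RPS20 have no overlap between HD and LD; in EML2 and PADI2 the filled LD point lies with the HD libraries.

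PTER, a phosphotriesterase-related protein, had 1363, 1817 and 2062 normalized reads in HD against 872, 1142 and 1595 in LD, a difference of 0.61 ± 0.16 (limma, adjusted p = 0.298). LSM14A, an RNA-binding protein of processing bodies, had 552, 649 and 723 in HD against 489, 553 and 574 in LD (0.28 ± 0.07). In LSM14A only HD replicate 6, at 552, lay within the LD range. PLOD2, which hydroxylates lysines of collagen, was higher by 0.39 ± 0.11 although the collagen genes themselves were lower. PPP2R2B, a brain subunit of phosphatase 2A, was at 0.24 ± 0.07, NUDT9, which splits ADP-ribose, at 0.35 ± 0.09, CHCHD1, a mitochondrial ribosome protein, at 0.44 ± 0.12 and AP3S1, an adaptor subunit for vesicle sorting, at 0.38 ± 0.10. FSD1L was at 0.77 ± 0.20 and TDP2, which repairs DNA ends bound by topoisomerase, at 0.34 ± 0.09. In 11 of the 12 genes with the smallest p on the higher side, PTPLA, SLCO1C1 and PGAP1 included, 7 of 7 HD libraries were above the LD mean. The 12 were chosen by their p in these same libraries, so this count largely follows from the choice.

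Neuronal genes differed little in size. In the general neuron list 17 of 20 were higher in HD, against 50.5% of all tested genes, with a median of 0.09. At an unadjusted p under 0.05, 4 were higher, against 5.87% of all tested genes. With the library-number term 14 of 20 were higher (51.1% of all tested genes), and 1 at that p (2.08% of all tested genes). STMN2, a microtubule regulator of growing axons, had 4376, 4700 and 5603 normalized reads in HD against 3393, 4178 and 5320 in LD (0.26 ± 0.09). MAP2, the dendritic microtubule protein, was at 0.18 ± 0.07, NSF, the ATPase that separates SNARE complexes, at 0.18 ± 0.06 and SYT1, the calcium sensor of release, at 0.15 ± 0.06. Without the libraries numbered 1-8 the list had 10 members above and 10 below 0, with a median of 0.03. Of 21 genes of excitatory neurons and cortical layers 13 were higher and 8 lower, with a median of 0.11, or −0.02 without the libraries numbered 1-8. ETV1 and BCL11B, transcription factors of deep-layer neurons, were at 0.28 ± 0.10 and 0.26 ± 0.10. They were the only 2 of the 21 at an unadjusted p under 0.05, against 5.87% of all tested genes on the higher side. In the fit with the library-number term 1 of the 21 was higher at that p, against 2.08%.

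Of 15 tested receptors for GABA and glycine, which inhibit neurons, 14 were higher in HD, with a median of 0.12, against 50.5% of all tested genes. At an unadjusted p under 0.05, 3 were higher, against 5.87% of all tested genes. The glycine receptor subunit GLRA2 had 238, 331 and 492 normalized reads in HD against 180, 253 and 347 in LD (0.49 ± 0.17). GLRA3 was at 0.25 ± 0.12, the GABA-A subunit GABRB1 at 0.12 ± 0.06 and GABRA5, an extrasynaptic subunit, at 0.33 ± 0.18. The direction held in 11 of 15 without the libraries numbered 1-8 (median 0.12) and in 12 of 15 with the library-number term (median 0.05). Genes that mark inhibitory neurons had a median of −0.05, and glutamate receptors 0.01.

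Genes that neuronal activity induces were higher in 22 of 33, with a median of 0.06 (−0.01 in cohort 7a alone). At an unadjusted p under 0.05, 4 were higher and 1 lower. Among all tested genes 50.5% were higher, and 5.87% were higher and 6.68% lower at that p. NR4A3, an orphan nuclear receptor, had 227, 358 and 425 normalized reads in HD against 197, 258 and 379 in LD (0.50 ± 0.16). BDNF, a growth factor released at synapses, had 164, 245 and 281 in HD against 138, 192 and 259 in LD (0.41 ± 0.15). SPRY2, a brake on growth factor signals, was at 0.18 ± 0.07 and HOMER1, a postsynaptic scaffold, at 0.17 ± 0.08. Chaperones, which fold proteins, were higher in 20 of 31, with 7 higher and 1 lower at an unadjusted p under 0.05, led by HSP90AB1 (0.17 ± 0.06), CANX (0.15 ± 0.06), HSPA4 (0.15 ± 0.06) and DNAJA1 (0.16 ± 0.07). With the library-number term 3 of the activity genes and 1 chaperone were higher at an unadjusted p under 0.05, against 2.08% of all tested genes.

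Ribosomal protein genes had 46 of 76 higher, with a median of 0.05, against 50.5% higher among all tested genes. At an unadjusted p under 0.05, 7 were higher (against 5.87% of all genes) and 1 lower. In the fit with the library-number term 1 of 76 was higher at that p, against 2.08% of all genes, and the median within cohorts was 0.10 in cohort 4, −0.03 in cohort 7a and −0.01 in cohort 7b. RPS20 was the only gene whose 7 HD libraries all lay above the 10 LD libraries (0.00773% of those tested), at 1475, 1548 and 1753 normalized reads in HD against 1079, 1251 and 1437 in LD, and its difference was 0.32 ± 0.10 (limma, adjusted p = 0.314). RPL29 at 0.59 ± 0.20, RPS26 at 0.43 ± 0.17 and RPS27A at 0.24 ± 0.10 were also higher. These genes have many processed copies in the genome, and whether reads from copies were counted is not given in the sources used here. Within cohort 4 RPL29 and RPS26 were at −0.28 and −0.00, so their direction was not shared by all cohorts. Splicing factors had 33 of 46 higher with a median of 0.06, led by SNRPB2 (0.25 ± 0.10), HNRNPC (0.16 ± 0.06), PTBP2 (0.19 ± 0.08) and HNRNPA0 (0.18 ± 0.08), but 22 of 46 with the library-number term.

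Microtubule genes were divided, with 20 of 36 higher and 16 lower and a median of 0.02. At an unadjusted p under 0.05, 7 were higher and 3 lower, against 5.87% and 6.68% of all tested genes. With the library-number term these were 3 and 2, against 2.08% and 2.43%. STMN1, which frees tubulin, was at 0.20 ± 0.07 and TTLL4, a tubulin-modifying ligase, at −0.28 ± 0.09. In vesicle release NAPB, the brain form of SNAP, was at 0.26 ± 0.09 where its relative NAPA was at −0.31 ± 0.08. NAPB had 8387, 9669 and 11194 normalized reads in HD against 7627, 8186 and 10379 in LD, and NAPA 1181, 1350 and 1457 in HD against 1394, 1586 and 1727 in LD. Both genes are SNAP adaptors of NSF, and their differences were 0.22 and −0.21 with the library-number term.

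A set of 28 genes was put down for report, for links to alcohol or brain function or for earlier values from these data. Of them 0 were called and 11 had an unadjusted p under 0.05: PTPLA, SLCO1C1, PGAP1, EML2, PADI2, TRIP6, GLIS3, CD93, GPAT2, BDNF and GFAP. The first 9 were listed because of those earlier values, so their small p follows from the choice and is no support. Apart from them only BDNF and GFAP had an unadjusted p under 0.05, where 12.5% of all tested genes did. The other 17 differed by between −0.07 and 0.21. NPY, a peptide linked to ethanol intake in rodents, had 75.7, 94.5 and 119 normalized reads in HD against 61.4, 82.1 and 176 in LD (0.16 ± 0.21). SST, somatostatin, was at 0.21 ± 0.17, CRH, the stress peptide, at −0.05 ± 0.15 and PDYN, the precursor of dynorphins, at 0.03 ± 0.13. The glucocorticoid receptor NR3C1 was at 0.04 ± 0.08, its target FKBP5 at 0.09 ± 0.23 and ALDH2, the enzyme that clears acetaldehyde, at 0.12 ± 0.09. For ADCYAP1, the precursor of the peptide PACAP, the difference was 0.41 ± 0.17, the smallest p among 34 neuropeptide and receptor genes.

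Exons were tested one by one to see where in a gene the reads lie. limma called 0 of 119940 exons (0%) and counted 11144 (9.29%) at an unadjusted p under 0.05, 4585 higher (3.82%) and 6559 lower (5.47%) in HD. With the library-number term the count was 4921 (4.1%). The exon with the smallest p belongs to COL5A2, a type V collagen chain, at chr2b:76345710-76345871 as the exon name gives it, the genome build being not given in the sources used here. It had 1.43, 6.57 and 12.3 normalized reads in HD against 10.2, 18.1 and 25.6 in LD, a difference of −1.95 ± 0.31 (limma, adjusted p = 0.0516) where the whole gene differed by −0.51 ± 0.16. With the library-number term the exon differed by −1.59 (limma, adjusted p = 0.835). Of 50 tested COL5A2 exons 45 were lower, and 12 of these at an unadjusted p under 0.05. Exons of one gene come from the same RNA and are not replicates.

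For the genes above, exons mostly pointed one way. Lower were 49 of 49 in COL1A1, 47 of 47 in FLNA, 46 of 46 in FN1, 52 of 57 in TLN1, 21 of 22 in EML2 and 15 of 16 in PADI2. Higher were 27 of 27 in PGAP1 and 14 of 15 in SLCO1C1. Of all tested exons 47.9% were above and 52.1% below 0. These genes were named by their gene-level p, and their exons carry the same reads. The shared direction thus largely follows from the choice and is no further support. In GLIS3 8 of 9 were lower. MAP2 had 8 of 12 and HNRNPC 5 of 9 exons in the gene's direction. Chosen after their values were seen, single exons of MPP6 (1.05 ± 0.20), NOC3L (1.40 ± 0.29) and GDA (0.82 ± 0.17) had the smallest p on the higher side together with KLHL7 and EDC4. On the lower side single exons of MMP2, a matrix protease, ANGPTL7, AOX1 and RAB3IL1 followed the COL5A2 exon. The MMP2 exon was at −1.67 ± 0.31, with 0, 1.67 and 3.85 normalized reads in HD against 1.85, 5.35 and 10.5 in LD. Every HD library thus lay under the minimum of 5 used for exons, near the floor. The EDC4 exon, at 20.0, 26.3 and 32.9 in HD against 9.31, 13.6 and 20.4 in LD, was higher by 0.91 ± 0.19 while the gene was at −0.16.

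**Figure D5:**
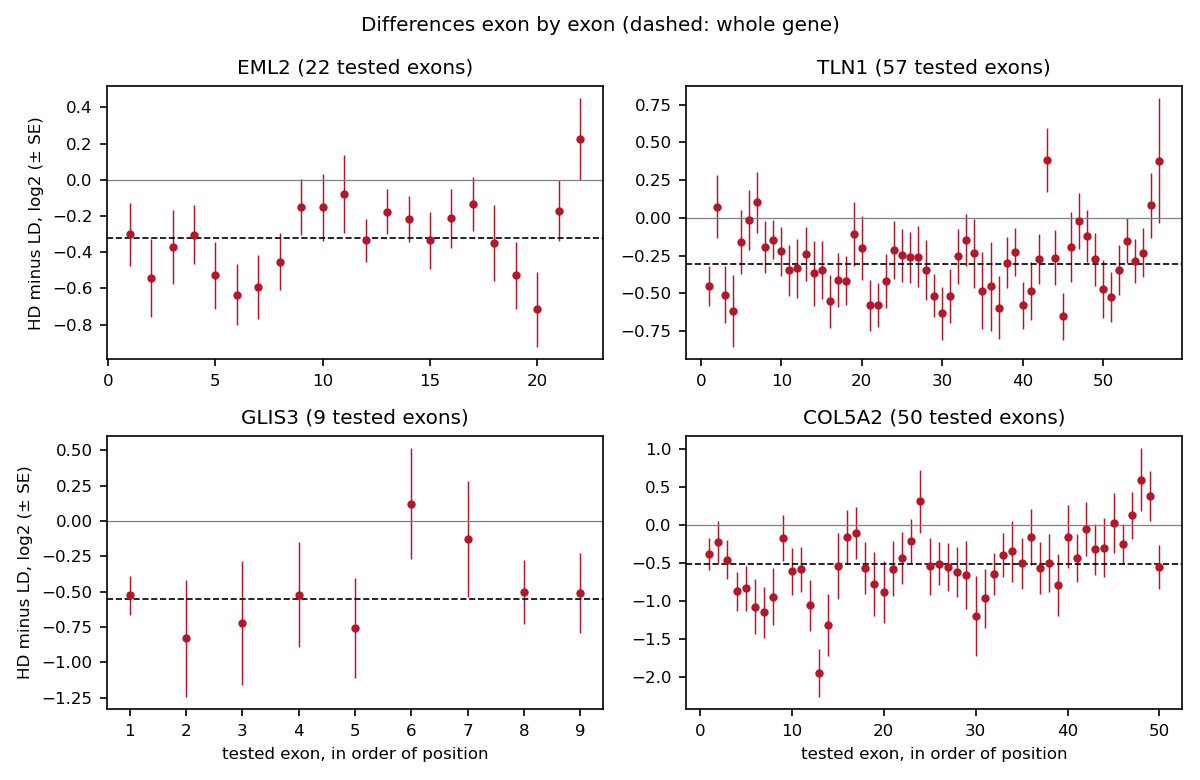
Difference between HD and LD (log2, estimate ± SE) for each tested exon of EML2, TLN1, GLIS3 and COL5A2 in order of position, with the whole gene as a dashed line. Most exons lie below 0, and 1 COL5A2 exon lies lowest at −1.95.

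Whether the difference between HD and LD itself varied among cohorts 4, 7a and 7b was tested with limma: 0 of 12935 genes were called, 372 had an unadjusted p under 0.05, and the smallest adjusted p was 0.712. These cohorts hold 1, 2 and 1 HD animals, so the test could hardly find such a variation and does not show its absence. For scale, 5% of the tested genes would be 647. Genes higher in HD at an unadjusted p under 0.05 had a median of 3122 exon bases, those lower 2771 and all tested genes 2768.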

How the data were processed

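Area 32 RNA of 30 animals was sequenced, 1 library per animal. The authors deposited a gene table (15521 genes) and an exon table (156345 exons) whose values are a signal, reads scaled to a common upper quartile, and not counts; CASAVA, FastQC, STAR 2.3.0e and edgeR are named per the submitters' processing notes, and no source used here names the build, annotation or counter. Dividing by each library's smallest step (0.656 to 2.07) gave whole reads for 100% of gene values within 0.01. Genes at 10 or more in at least 6 libraries were tested as log2(value + 1) with limma 3.58.1 (R 4.3.3, trend), drinking category and cohort as terms and all 30 libraries, with Benjamini-Hochberg adjustment at 0.05; exons used a minimum of 5. Fold changes on this scale understate low genes. edgeR 4.0.16 and DESeq2 1.42.0 ran on the recovered reads. The limma gene fits, without and with the library-number term, were tested on simulated data that held no cohort or library-number effect. The edgeR, DESeq2 and exon fits were not tested in this way. Animals, not technical repeats, give the spread. Genes named are the 12 with the smallest p each way, 28 fixed genes, up to 4 members per list, and genes called by an alternative or leading with the library-number term. Some genes the rule names are left out of the text but stay in the counts of lists and tests. Members and lists were chosen with earlier results of these data known. Chosen after seeing the data were edgeR and the 17 libraries alone with the library-number term, and the test between cohorts.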

Additional observations from a re-analysis of the deposited data

Results flagged for a closer look

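In groups of 7 and 10 libraries, 26 of 242 gene and list levels had 1 library far from the rest of its group; chance alone flags about 5% of groups. All single-gene values are log2(normalized reads + 1).

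LD replicate 1, of cohort 7b and the only LD library numbered 1-8, stood apart in 8 of them. It was highest for FSD1L (6.13), AP3S1 (9.16), ACTA2 (10.38), CNN1 (7.26) and FLNA (11.93), lowest for FGFR3 (9.52) and for the astrocyte list (−0.35 relative to the LD mean, next LD library −0.10), and highest for the pericyte and smooth muscle list (0.80, next LD library 0.11). Without it that list's median was −0.28, with 4 of 21 lower at an unadjusted p under 0.05 against 8.38% of all genes.

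HD replicate 5, of cohort 5 and number 9, was the highest HD library for FN1 (11.53), KDR (9.50), COL3A1 (10.02), DCN (10.34), LUM (8.09), the fibroblast list (0.65, next −0.48), the pericyte and smooth muscle list (0.50, next −0.33) and the basement membrane list (0.23, next −0.16). Without it the fibroblast median was −0.83 with 25 of 30 lower at an unadjusted p under 0.05, against 7.62% of all genes.

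HD replicate 7, the only HD animal of cohort 4, was highest for RPS20 (10.78) and lowest for RPL29 (6.70). HD replicate 1 was highest for SIRPB1 (5.29) and lowest for BDNF (7.36). Single HD libraries were highest for NSF (13.44) and ELOVL1 (7.53). Single LD libraries were highest for GPAT2 (6.19), TLN1 (11.29) and PLLP (7.91), and LD replicate 3 was lowest for TWIST1 (6.20). What sets these libraries apart was not tested.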

How the results depend on the processing

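Of 111 named genes under 33 alternatives, values kept their direction and side of the threshold except as given here. limma called 1 gene without the cohort term (GPAT2) and 2 without cohort 5 (OMD, PI16), and DESeq2 called 5. Every other alternative called 0, also with any HD or LD library left out. The fits in this section with each library left out cover the HD and LD libraries only. No VHD or BD library was left out alone, so the dependence on these was not tested. The unadjusted count was 583 with the library-number term, 1000 without libraries numbered 1-8, 683 in cohort 7a alone and 1122 to 2141 with each library left out; for exons it was 4921 with the term. Without libraries numbered 1-8, 210 of 12935 genes (1.62%) had no overlap, among 3 HD and 9 LD libraries in place of 7 and 10. List medians that moved without libraries 1-8 were excitatory neurons −0.024, neuropeptides 0.17, vesicle release −0.11, postsynaptic scaffold −0.12, ethanol metabolism 0.050, fatty acid elongation −0.14, GPI anchor 0.042, splicing factors −0.017 and circadian −0.12, and the sign also changed for cholesterol synthesis (0.096), thyroid hormone (0.046), lysosome (0.033), microglia (0.021) and glucocorticoid response (0.0076). In cohort 7a alone vesicle release was −0.044 and fatty acid elongation 0.030, and the sign also changed for ribosomal proteins (−0.027), activity-induced genes (−0.013), oxidative phosphorylation (−0.011), monoamine receptors (−0.040), inhibitory neurons (0.016), microglia (0.0033), cholesterol synthesis (0.082), lysosome (0.012) and circadian (0.027); with the library-number term GPI anchor was 0.022 and splicing factors −0.0017, and the sign also changed for thyroid hormone (0.031), oligodendrocyte precursors (−0.013), vesicle release (−0.013), cholesterol synthesis (0.023) and lysosome (0.00042); without cohort 5 GPI anchor was 0.015, cholesterol synthesis 0.023 and circadian 0.016. Medians near 0 of monoamine receptors, glutamate receptors, cholesterol synthesis and circadian genes also changed sign under other settings. With each library left out, medians ranged over −0.032 to 0.17 (excitatory neurons), −0.042 to 0.048 (vesicle release), −0.11 to 0.0081 (ethanol metabolism), −0.12 to −0.034 (GPI anchor), −0.0675 to 0.0532 (circadian) and −0.85 to −0.47 (fibroblasts). Genes with no call changed sign: FBLN5 0.015 without libraries 1-8 and 0.046 in cohort 7a, CRH 0.051 without libraries 1-8, 0.060 in cohort 7a and 0.021 with array weights, PDYN −0.090 without the cohort term and MBP 0.074 in cohort 7a; with each library left out, LAMA1 ranged over −0.17 to 0.023, FBLN5 −0.39 to 0.031, CRH −0.12 to 0.097, PDYN −0.056 to 0.15, FKBP5 −0.12 to 0.23, NR3C1 −0.0029 to 0.073 and MBP −0.12 to 0.071. The cause was not tested. No paired analysis was possible because the labels give no number shared between HD and LD animals. Promoter motifs were not run, since no promoter sequence was used here.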
